A study of Mus musculus with 11 samples.

Results

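Cenpf, Ttll1, Ano10 and Tbc1d10c are 4 mouse genes that were chosen from 18194 measured genes because their signal was much lower in adult hearts labelled HMGN5 transgenic than in adult control hearts, with no such drop in newborns. The rule set no numeric threshold. All 4 genes were found. RNA was taken from the left ventricle of C57BL/6 mice and hybridised to Affymetrix arrays. Of the 11 arrays, 6 are from adults (3 transgenic, 3 control) and 5 from newborns (3 transgenic, 2 control), and the labels call those of a group biological replicates. The transgenic mice carried a FLAG-tagged Hmgn5 cDNA in a construct with a floxed LacZ sequence and the CAG promoter, together with a cre under the alphaMHC promoter of heart muscle. Controls have the label wild-type, so cre and the Hmgn5 cDNA cannot be told apart as the source of a difference. "Adult" and "newborn" are the ages as labelled. A ventricle sample holds several cell types, and fewer cells of a type cannot be told apart from less RNA per cell.

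The genes act in different parts of the cell. Ttll1 encodes the catalytic subunit of a tubulin polyglutamylase, which adds chains of glutamate to the tails of tubulin in microtubules. Ano10 belongs to the anoctamin family and encodes a phospholipid scramblase of the endoplasmic reticulum. Tbc1d10c encodes carabin, a TBC-domain protein of lymphocytes and heart muscle that inhibits the phosphatase calcineurin and Ras signalling. Calcineurin activates NFAT transcription factors and so promotes growth of heart muscle cells under load. Cenpf encodes a large coiled-coil protein that binds kinetochores and microtubules. It is usually transcribed in dividing cells, and its loss from the heart muscle lineage of mice leads to dilated cardiomyopathy.

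RefSeq promoter sequences (build GRCm38.p6, 250 bases before to 50 after the gene start) were matched for 2 of the 4 genes, Cenpf and Ano10. Ttll1 and Tbc1d10c had no entry. The stretches below are shown because letters of motifs known from cell cycle genes were found in the Cenpf promoter and not in that of Ano10. Such short matches are common among promoters and do not show that a motif works. Capitals mark the motif, and each stretch is read 5′ to 3′ on the minus strand, the strand of the gene.
Cenpf, CCAAT box, chr1:189688140-189688169: ctctcgccatggCCAATgggcgtggaggct
Cenpf, cell-cycle homology region, chr1:189688067-189688096: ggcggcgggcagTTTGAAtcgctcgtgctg
Ano10, GC box, chr9:122294419-122294448: agccggaaggccCCGCCCctcccggtcgtt

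Motifs were searched by exact letters on both strands. CCAAT, the box bound by NF-Y, occurred 2 times in the Cenpf promoter and 0 times in that of Ano10, and 37.4% of the 32851 promoters in the table hold it. TTTGAA, the core of the cell-cycle homology region that silences genes in resting cells, occurred 1 time in Cenpf, just after the start, and 0 times in Ano10, against 17.9% of promoters. GGGCGG, the GC box bound by Sp-family factors, occurred 2 times in Cenpf and 5 times in Ano10, each time in Ano10 as its reverse complement CCGCCC, and 35.7% of promoters hold it. TATAAA occurred in neither, against 13.6%. No matches overlapped, and a match describes the sequence alone.

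Values are the log2 signals deposited by the authors. A gene with several probe sets is represented by the one with the highest mean over the 11 arrays. The mean of 10 heart muscle markers was between 13.15 and 13.58 on every array, so heart muscle transcripts were present throughout. The Hmgn5 probe set read 8.29, 8.26 and 8.71 in transgenic adults against 8.44, 8.77 and 8.52 in controls, and 8.56, 8.84 and 8.69 against 8.85 and 8.81 in newborns. It was not higher in the hearts labelled transgenic. Whether the cDNA holds the part of the transcript that it reads is not given in the sources used here, so it does not check the labels. Signal for 18S ribosomal RNA set adult replicate 3 of both groups apart, at 12.18 (transgenic) and 11.89 (control), from other adult arrays at 7.64 to 8.58. Newborn arrays read 10.05 to 10.53, so age cannot be told apart from how the arrays were processed.

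**Figure D1:**
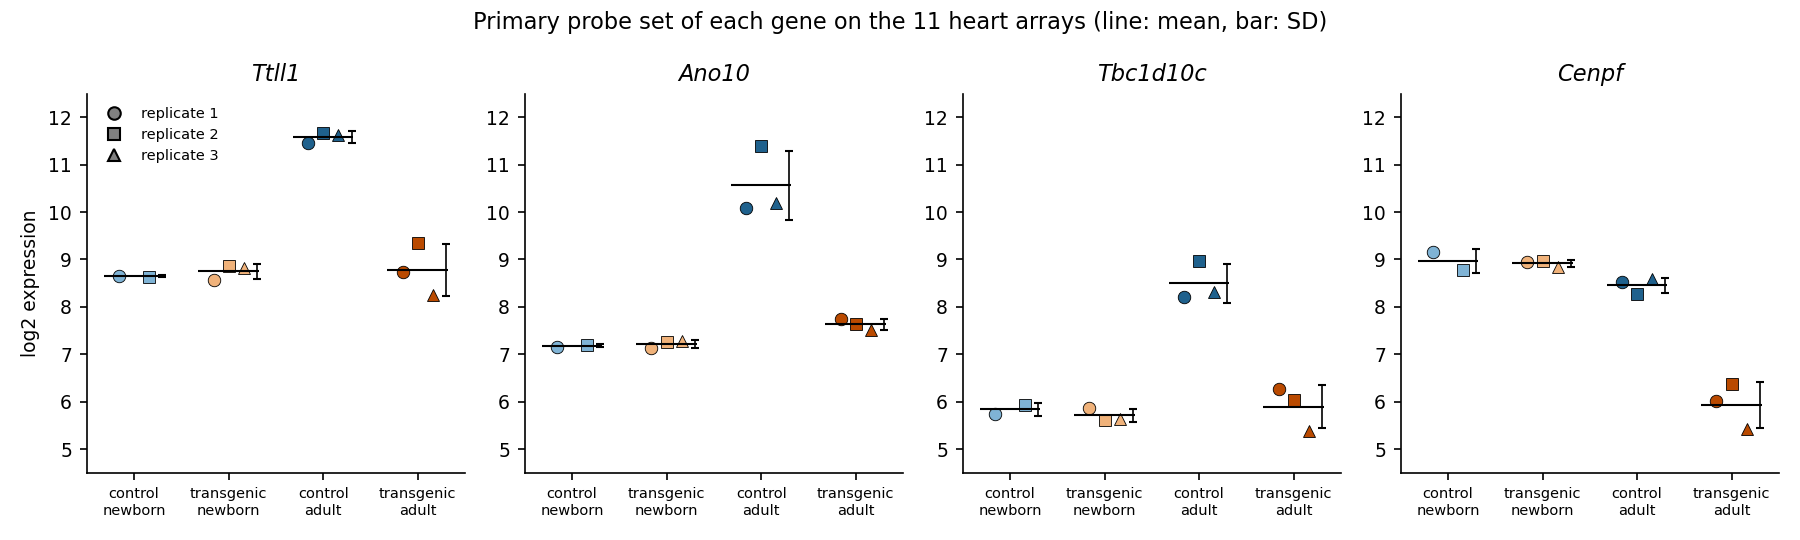
Log2 expression of the primary probe set of each gene on every array, by group; shapes give the replicate number, lines the group mean and bars the SD. Ttll1, Ano10 and Tbc1d10c are high in the control adult arrays alone, while Cenpf is low in the transgenic adult arrays alone.

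Ttll1 was high in control adult hearts and near the newborn level in transgenic adult hearts. Control adults read 11.45, 11.67 and 11.63, and transgenic adults 8.74, 9.34 and 8.24. Newborns read 8.57, 8.87 and 8.81 (transgenic) and 8.66 and 8.63 (control). The transgenic adult arrays lay on either side of the newborn values, and only the control adults stood apart from the other 3 groups. The mean was 8.77 ± 0.55 (SD, n = 3) in transgenic and 11.58 ± 0.12 (n = 3) in control adults, a log2 difference of -2.81 (SE 0.22), or 7.01-fold. The newborn difference was 0.10 (SE 0.25). The adult difference ranked 7 from the lowest among 18194 genes. These contrasts chose the genes, so for all 4 the differences are descriptions with no test.

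Ano10 had the largest adult difference of the 4. Control adults read 10.09, 11.39 and 10.20, with replicate 2 the highest, and transgenic adults 7.74, 7.63 and 7.52. Newborns read 7.13, 7.25 and 7.27 (transgenic) and 7.16 and 7.20 (control). The order was control adults, then transgenic adults, then newborns. Each transgenic adult array was above each newborn array, and the newborn groups overlapped. The adult means were 7.63 ± 0.11 and 10.56 ± 0.72 (SD, n = 3 each), a log2 difference of -2.93 (SE 0.27), or 7.63-fold, which was -2.52 without control adult replicate 2. The newborn difference was 0.03 (SE 0.30).

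Tbc1d10c, like Ttll1, was high in control adults and near the newborn level in transgenic adults. Control adults read 8.21, 8.97 and 8.31, and transgenic adults 6.26, 6.04 and 5.38. Newborns read 5.87, 5.62 and 5.64 (transgenic) and 5.74 and 5.93 (control). Transgenic adult values fell above and below those of newborns. The adult means were 5.89 ± 0.46 and 8.50 ± 0.41 (SD, n = 3 each), a log2 difference of -2.61 (SE 0.24), or 6.09-fold. The newborn difference was -0.13 (SE 0.27). Among all probe sets of an array it stood between percentiles 53.7 and 66.4 in transgenic adults and between 86.1 and 90.6 in control adults.

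Cenpf had another pattern. Newborns read 8.94, 8.97 and 8.84 (transgenic) and 9.15 and 8.78 (control), and control adults were only slightly lower at 8.52, 8.28 and 8.58. Transgenic adults read 6.01, 6.38 and 5.42. The newborn groups overlapped, control adults lay just under them, and transgenic adults lay far under all other arrays. The adult means were 5.94 ± 0.49 and 8.46 ± 0.16 (SD, n = 3 each), a log2 difference of -2.52 (SE 0.21), or 5.74-fold. The newborn difference was -0.05 (SE 0.24).

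Every transgenic adult array was below every control adult array for all 4 genes, as was the case for 7.94% of all genes tested. The genes were chosen on this contrast, so nothing is read from that count. Of all genes, 11 fell at least as far as Cenpf, the member with the smallest fall, and 10 of these had a newborn difference under 0.5 in size. Next to Cenpf in rank were Mme at -2.55, with a newborn difference of -0.52, and Rpl3l at -2.50, with -0.40. Kcnj3 followed at -2.49, with a newborn difference of -0.12.

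In control hearts the adult level of 3 genes was far above the newborn level. The log2 difference, adult minus newborn, was 3.38 (SE 0.30) for Ano10, 2.94 (SE 0.25) for Ttll1 and 2.66 (SE 0.27) for Tbc1d10c, and it was -0.51 (SE 0.24) for Cenpf. In transgenic hearts the same differences were 0.42 (SE 0.27), 0.02 (SE 0.22) and 0.18 (SE 0.24), and -2.98 (SE 0.21) for Cenpf. The adult signal of Ttll1, Ano10 and Tbc1d10c was thus close to the newborn signal in transgenic hearts, and that of Cenpf was far below it. The age difference in controls and the transgenic difference in adults share the 3 control adult arrays. Across the 11 arrays Ttll1, Ano10 and Tbc1d10c had Pearson r of 0.96 to 0.98 with one another, and Cenpf had r of 0.09 to 0.23 with them. These correlations describe arrays that share groups and carry no test.

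Replicate 3 had the lowest value of the transgenic adults for each of the 4 genes, and it belongs to the arrays with high 18S signal. Within that pair of arrays, 1 transgenic and 1 control, the log2 difference was -3.16 for Cenpf, -3.39 for Ttll1, -2.68 for Ano10 and -2.93 for Tbc1d10c. Within the other adult arrays, 2 against 2, it was -2.20, -2.52, -3.05 and -2.44. The genes were chosen for low values on these same arrays, so the split is a description and lends the differences no support. The part of array processing in them was not tested.

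Markers of other cells were read beside these values. The mean of the atrial markers Myl4, Myl7 and Sln was 10.53 in transgenic adult replicate 1, 6.59 and 6.52 in replicates 2 and 3, and 10.10 to 12.24 in control adults. On newborn arrays it was 12.49 to 12.87, above every adult array, and its part in the age differences was not tested. In transgenic adult replicate 1, Cenpf read 6.01, Ttll1 8.74, Ano10 7.74 and Tbc1d10c 6.26, and the part of atrial tissue in the differences was not tested. Tbc1d10c is known from lymphocytes, and 14 of 17 listed T and B cell markers were measured. None of the 14 was called in adults (limma adjusted p), 0 had an unadjusted p under 0.05, and their mean per array was 4.96 to 5.52 in transgenic and 5.17 to 5.51 in control adults. Adult signals were low for some, such as Cd3g (3.34 to 3.82) and Cd247 (3.43 to 3.82), where a change would be hard to see. Ptprc read 6.49 to 8.58. In control hearts limma called 9 of the 14 higher in adults than in newborns, beside 14.9% of all genes. Their part in the age difference of Tbc1d10c was not tested. Over all genes limma called 7.09% in adults, 4.16% higher and 2.93% lower. Macrophage markers rose for 3 of 9 genes and fibroblast markers for 2 of 8, with 0 falling. Per array the macrophage mean was 8.85 to 9.50 in transgenic and 8.60 to 8.95 in control adults, and the fibroblast mean 10.43 to 11.01 and 9.33 to 10.36. Their part in the results was not tested. Among heart muscle markers limma called 0 of 10, and 1 had an unadjusted p under 0.05. Of 9 atrial markers 2 rose and 1 fell, of 6 endothelial markers 1 rose and 1 fell, and of 7 skeletal muscle markers 1 rose. Of 7 adipocyte and 4 neural markers limma called 0, and 3 and 0 had an unadjusted p under 0.05. Control adult replicate 3 stood apart in the adipocyte list, with a mean of 7.32 against 6.10 to 6.29 on the other adult arrays, and read 7.89 for Adipoq and 7.62 for Ucp1. Without that array the log2 differences of the 4 genes were -2.46 for Cenpf, -2.79 for Ttll1, -3.11 for Ano10 and -2.70 for Tbc1d10c.

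**Figure D2:**
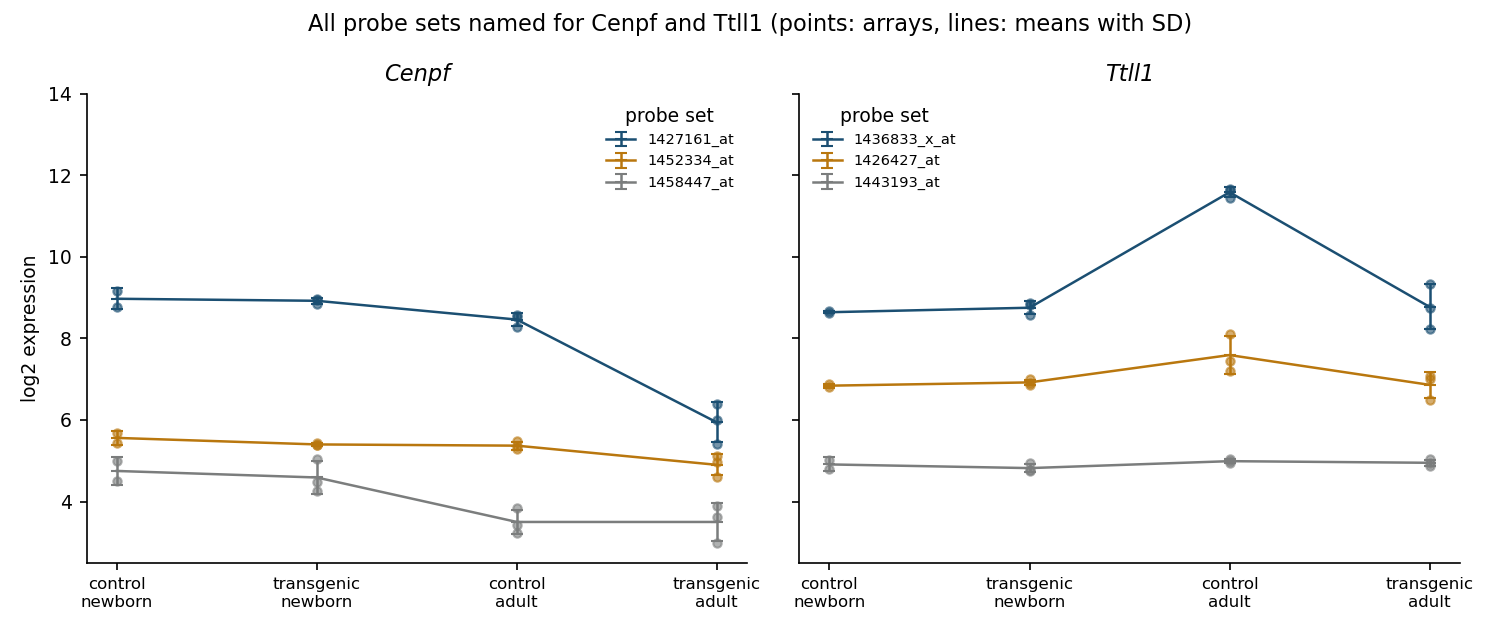
Log2 expression of the 3 probe sets annotated to Cenpf and the 3 annotated to Ttll1 in the 4 groups; points are arrays, and lines join group means with SD bars. Only the brightest probe set of each gene shows the large adult drop.

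The other probe sets of Cenpf and Ttll1 did not show falls of this size. For Ttll1 the brightest probe set, 1436833_x_at, carries a suffix by which Affymetrix marks probes that may also bind other transcripts. The second, 1426427_at, read 7.01, 7.07 and 6.49 in transgenic and 7.21, 7.44 and 8.11 in control adults, a log2 difference of -0.73. It was lower in each transgenic array than in each control array, and its age difference in controls was 0.75. The third, 1443193_at, read 4.75 to 5.04 on all arrays, between percentiles 44.1 and 48.5, with an adult difference of -0.04. The second probe set thus shared the direction at a smaller size and the third was flat. What the 3 probe sets bind was not tested.

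For Cenpf, 1452334_at, which has the same source accession as the brightest probe set 1427161_at, read 5.12, 4.61 and 4.96 in transgenic and 5.28, 5.48 and 5.37 in control adults. Its difference was -0.48, with no overlap between the groups. The third probe set, 1458447_at, read 3.88, 3.63 and 2.99 against 3.24, 3.43 and 3.83, a difference of 0.00. It had a difference of -1.25 between control adults and control newborns, where the brightest probe set had -0.51. In adults it stood between percentiles 7.72 and 25.1 of its array, so a fall there would be hard to see. Ano10 and Tbc1d10c have 1 probe set each, which leaves no second reading of those genes.

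**Figure D3:**
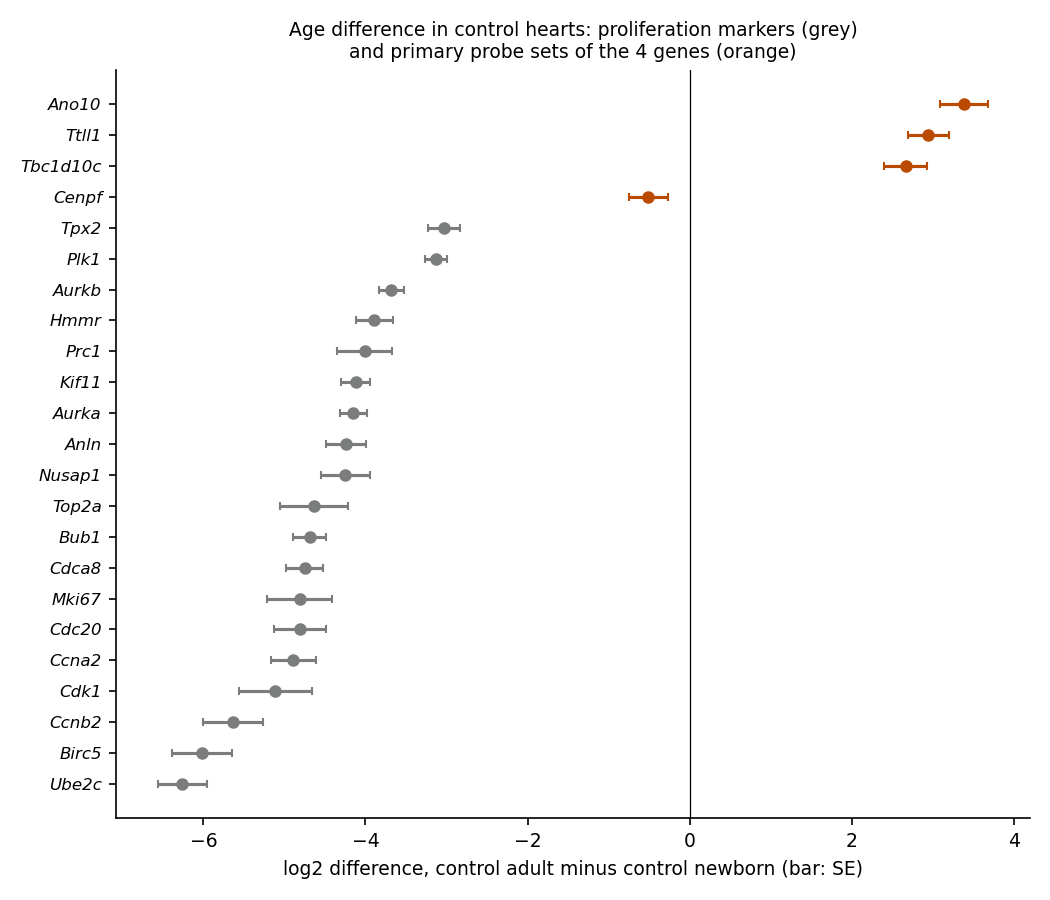
Log2 difference between control adult and control newborn hearts, with the standard error of the fit, for 19 proliferation markers (grey) and the primary probe sets of the 4 genes (orange). The markers lie between -6.26 and -3.03, Cenpf at -0.51 and the other 3 genes between 2.66 and 3.38.

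Cenpf is usually transcribed with other genes of mitosis, so its signal was set beside theirs. Of 20 listed proliferation markers 19 were measured, and all 19 were lower in control adults than in control newborns (limma adjusted p under 0.05), beside 33.0% of all genes called, 14.9% higher and 18.1% lower. Mki67, a standard marker of dividing cells, read 5.26 ± 0.67 (SD, n = 3) in control adults and 10.07 ± 0.17 (n = 2) in control newborns. Top2a, the DNA topoisomerase of mitotic chromosomes, fell by 4.64 (SE 0.42, limma adjusted p = 2.05e-05), and Cenpe, the kinetochore motor, fell by 3.31 (SE 0.24, limma adjusted p = 3.44e-06). Of 30 centromere and kinetochore genes 22 were lower and 2 higher, with a median of -1.41 beside 0.09 over all genes. The Cenpf probe set kept most of its newborn signal in control adults, where these markers were low.

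In adults limma called 0 of the 19 proliferation markers between transgenic and control hearts, beside 7.09% of all genes. Their median log2 difference was 0.32, beside 0.00 over all genes, and 4 had an unadjusted p under 0.05. Ube2c, a ubiquitin carrier of mitotic exit, differed by 0.99 (SE 0.27, limma adjusted p = 0.0533) and Birc5, the survivin gene, by 1.04 (SE 0.33, adjusted p = 0.0949). Mki67 differed by 0.16 (SE 0.36, adjusted p = 0.875). Adult signals were low for some of these markers. In control adults Birc5 read 3.44 to 4.06 and Ube2c 4.2 to 4.93, beside a 40th percentile of adult arrays of 4.55 to 4.6. A difference from so low a signal is hard to read. Mki67 read 4.85 to 6.04 in control adults, above that percentile. Without transgenic adult replicate 3 limma called Ube2c (1.31, adjusted p = 0.00266), Birc5 (1.54, adjusted p = 1.62e-04), Anln (0.87, adjusted p = 0.0353) and Top2a (0.67, adjusted p = 0.0383). Ube2c gained the call under 8 of 22 alternatives, among them the replicate block (adjusted p = 0.0202) and the 18S batch as a factor (0.0165), with a range of 0.00266 to 0.212. Birc5 gained it under 4 (range 1.62e-04 to 0.306) and Anln under 5 (range 0.00581 to 0.282). Without control adult replicate 1 it was gained by Ube2c (1.17, adjusted p = 0.0368) and Anln (1.04, adjusted p = 0.00581). The low Cenpf signal of transgenic adults thus stood beside proliferation markers whose median difference was above 0. Control adult signals of some of these markers were near or under the 40th percentile.

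**Figure D4:**
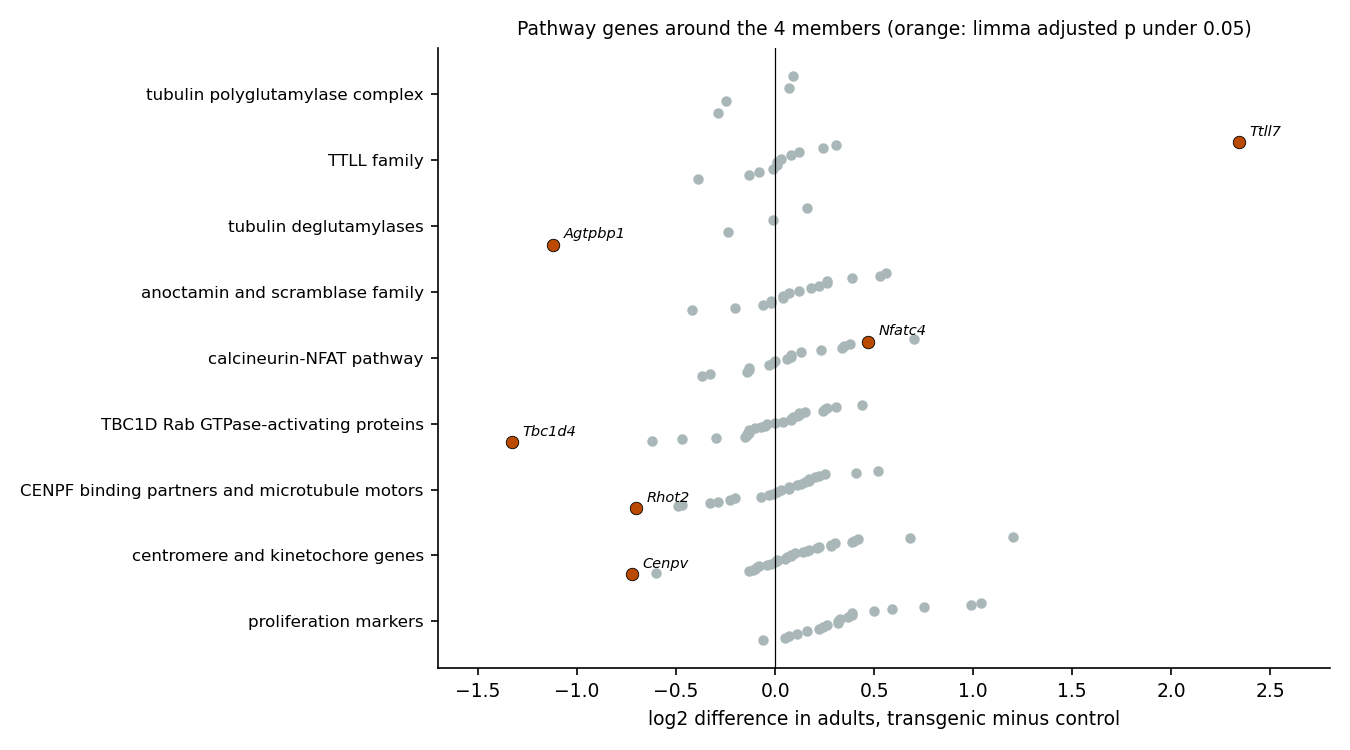
Log2 difference in adults, transgenic minus control, for the genes of the 9 pathway lists; a point is a gene, and orange points passed limma's test (adjusted p under 0.05). The 6 genes that passed are spread over 6 lists, with Ttll7 the highest at 2.34 and Tbc1d4 the lowest at -1.33.

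Partners and relatives of the 4 genes, and genes of related function, were taken from 9 lists, which hold 154 measured genes. In adults 2 rose and 4 fell (limma adjusted p under 0.05), beside 7.09% of all genes, 4.16% higher and 2.93% lower. The median log2 difference of the 154 was 0.08, beside 0.00 over all genes. List medians ran from -0.13 for the tubulin deglutamylases to 0.32 for the proliferation markers.

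Tubulin glutamylation genes had 1 riser and 1 faller. Ttll7, a polyglutamylase of the same family as Ttll1, read 7.51, 7.81 and 7.98 in transgenic and 5.90, 5.49 and 4.89 in control adults. It rose by a log2 difference of 2.34 (SE 0.29, limma adjusted p = 0.00103), opposite to Ttll1, and newborns of both groups read 4.89 to 5.91. The mean of its probe sets rose by 1.26 (adjusted p = 0.00156). Agtpbp1 encodes a carboxypeptidase that removes glutamates from tubulin. It read 8.59, 9.05 and 9.12 in transgenic and 9.74, 10.13 and 10.27 in control adults and 7.25 to 7.64 in newborns. It fell by 1.12 (SE 0.18, limma adjusted p = 0.00391), and its adult level in controls was 2.67 (SE 0.20) above the newborn level. Like Ttll1 it was lower in each transgenic adult array than in each control adult array, but its transgenic adult values stayed above all newborn values.

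The remaining genes of the TTLL family, the Ttll1 complex and the deglutamylases did not pass. Of the 12 measured TTLL family genes other than Ttll1, Ttll7 alone was called. Of the 4 measured subunits that form a complex with Ttll1, Tpgs1 differed by 0.07 (SE 0.25), Tpgs2 by -0.25 (SE 0.28), Nicn1 by -0.29 (SE 0.23) and Lrrc49 by 0.09 (SE 0.16), with limma adjusted p from 0.567 to 0.924. Ttll4 differed by -0.39 (SE 0.13, adjusted p = 0.0975) and Ttll12 by 0.31 (SE 0.12, adjusted p = 0.177). The deglutamylase genes Agbl3 and Agbl5 differed by 0.16 (SE 0.17) and -0.24 (SE 0.30), with adjusted p = 0.688 and 0.754.

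Genes of the anoctamin and scramblase list did not pass. Of 16 measured anoctamin and scramblase genes 0 were called in adults (limma), 4 had an unadjusted p under 0.05, and the median difference was 0.10. Plscr1, a scramblase gene that interferon induces, differed by 0.56 (SE 0.18, adjusted p = 0.0891) and Vmp1, a scramblase gene of the endoplasmic reticulum, by 0.53 (SE 0.15, adjusted p = 0.0573). Vmp1 passed under 3 of 22 alternatives (range 0.0318 to 0.475), among them without transgenic newborn replicate 1 (0.0449) or 3 (0.0481), and Plscr1 under 1 (range 0.0447 to 0.656). Ano6, the plasma membrane scramblase of the family, differed by 0.39 (SE 0.17, adjusted p = 0.229), Ano1, a chloride channel, by -0.42 (SE 0.18, adjusted p = 0.225) and Ano8 by -0.02 (SE 0.18, adjusted p = 0.973). In control hearts Ano6 was lower in adults than in newborns by 0.99 (SE 0.19), where Ano10 was higher.

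The calcineurin pathway, which carabin inhibits, had 1 riser among 18 measured genes. Nfatc4, a transcription factor that calcineurin activates, read 7.07, 7.05 and 6.99 in transgenic and 6.51, 6.70 and 6.50 in control adults. It rose by 0.47 (SE 0.10, limma adjusted p = 0.0195), but the mean of its probe sets differed by 0.13 and did not pass (adjusted p = 0.592). Rcan1, a calcineurin inhibitor that NFAT induces, read 10.30, 10.41 and 9.38 in transgenic and 9.06, 9.23 and 9.69 in control adults. The groups overlapped, and the difference of 0.70 (SE 0.26, limma adjusted p = 0.141) did not pass. Rcan1 passed under 3 of 22 alternatives. Without transgenic adult replicate 3 its difference was 1.03 (adjusted p = 0.00456). It was 1.21 without the 18S batch (adjusted p = 7.28e-04) and 1.0 with array weights (adjusted p = 0.01105). The catalytic subunit genes Ppp3ca and Ppp3cb differed by 0.08 (SE 0.17) and -0.37 (SE 0.15), with adjusted p = 0.872 and 0.190. Rcan3, of the same family as Rcan1, differed by 0.38 (SE 0.11, adjusted p = 0.0772) and Ppp3r2, a regulatory subunit gene of calcineurin, by 0.35 (SE 0.12, adjusted p = 0.117). Both passed without transgenic adult replicate 3 (adjusted p = 0.0282 and 0.0475) and with the 18S batch factor (0.0264 and 0.0314). Ppp3r2 read only 3.36 to 3.69 in transgenic and 2.99 to 3.30 in control adults. That is under the 40th percentile of adult arrays, 4.55 to 4.60. Ppp3cb passed without control adult replicate 1 (-0.51, adjusted p = 0.0487).

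Of 28 TBC-domain genes related to Tbc1d10c, 1 fell. Tbc1d4, a Rab regulator of glucose transporter traffic, read 7.16, 7.47 and 6.59 in transgenic and 7.71, 8.53 and 8.98 in control adults. It fell by 1.33 (SE 0.29, limma adjusted p = 0.0183). The closest relatives, Tbc1d10a and Tbc1d10b, differed by 0.04 (SE 0.18) and 0.24 (SE 0.12), with adjusted p = 0.941 and 0.287. Without transgenic adult replicate 3 Tbc1d10b differed by 0.36 and passed (adjusted p = 0.0477). Tbc1d31 differed by -0.62 (SE 0.19, adjusted p = 0.0734) and Tbc1d16 by -0.47 (SE 0.16, adjusted p = 0.104). Tbc1d31 passed under 2 of 22 alternatives, among them without transgenic adult replicate 2 (adjusted p = 0.0293). Tbc1d16 passed under 4 of 22, among them without transgenic adult replicate 3 (0.0304) or control adult replicate 1 (0.0205).

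Of 24 genes for binding partners of the Cenpf protein and for microtubule motors, 1 fell. Rhot2, a mitochondrial GTPase of the Miro family, read 8.12, 7.95 and 7.91 in transgenic and 8.45, 8.87 and 8.75 in control adults. It fell by 0.70 (SE 0.13, limma adjusted p = 0.00753) and in transgenic adults was near the newborn range of 8.03 to 8.23. The dynein regulators Nde1 and Ndel1 differed by 0.07 (SE 0.11) and 0.20 (SE 0.10), with adjusted p = 0.809 and 0.321. The nuclear pore gene Nup133 differed by -0.49 (SE 0.14, adjusted p = 0.0542). It passed under 3 of 22 alternatives, among them without transgenic adult replicate 2 (0.0149). The stress-response factor Atf4 differed by 0.41 (SE 0.14, adjusted p = 0.117). Among 30 centromere and kinetochore genes Cenpv, which encodes a microtubule-associated protein, fell by 0.72 (SE 0.13, limma adjusted p = 0.00866), from 8.05, 8.50 and 8.25 to 7.67, 7.62 and 7.37. Spc25 and Spc24, which encode subunits of the same kinetochore complex, differed in opposite directions, by 1.2 (SE 0.34, adjusted p = 0.0580) and -0.60 (SE 0.18, adjusted p = 0.0693). Spc25 passed under 6 of 22 alternatives, among them without transgenic adult replicate 3 (0.0336) or control adult replicate 1 (9.12e-04). Spc24 passed under 4 of 22, among them without control adult replicate 3 (0.0418).

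The count of 6 pathway genes moved with the setting. It was 30 without transgenic adult replicate 3, 12 without control adult replicate 1 and 20 with the 18S batch as a factor. With the atrial mean as a covariate it was 1, and with the adult arrays alone 2. Calls over all 18194 genes also moved, from 1290. Under these settings, in the same order, they were 2267, 1474, 2625, 238 and 373. Agtpbp1 passed under all 22 alternatives (adjusted p 8.95e-04 to 0.0457) and Ttll7 under 21 (4.55e-04 to 0.0513), while Rhot2 and Cenpv lost the call with the atrial covariate (adjusted p = 0.184 each) and the adult arrays alone (0.0752 and 0.0846), with ranges of 0.00350 to 0.184 and 0.00331 to 0.184. Tbc1d4 lost it under 4 alternatives (range 0.00301 to 0.339), among them without control adult replicate 2 (0.0727) or 3 (0.0532). Nfatc4 lost it under 6 (range 0.00850 to 0.592), among them the mean of its probe sets and the fits without transgenic adult replicate 1 (0.0574) or 2 (0.0522) or control adult replicate 3 (0.0596).

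In newborns 0 of the 154 pathway genes were called (limma), and 3 had an unadjusted p under 0.05, where 0% of all genes were called. The differences lay between -0.57 and 0.59. The transgenic effect in adults minus that in newborns was called for 0 of the 154 (limma), 17 had an unadjusted p under 0.05, and 0.687% of all genes were called. Ttll7 came nearest, with a difference between ages of 2.17 (SE 0.44, limma adjusted p = 0.0561). It was followed by Agtpbp1 at -1.17 (SE 0.27, adjusted p = 0.0904). The count between ages was 7 without transgenic adult replicate 3, 5 without control adult replicate 1 and 1 without transgenic newborn replicate 1. Calls over all genes between ages were not counted under these settings.

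The genes with the most similar course over the 11 arrays were found by Pearson r, as a description of arrays that share groups. Clone and predicted-gene names were passed over. By mean r with all 4, the top genes were Mccc1 (0.81), Slc22a5, Lamb3, Fkbp4, Acot7 and Tcea3 (0.80 each), and As3mt and Aqp7 (0.79 each). With Cenpf alone their r was only 0.33 (Aqp7) to 0.57 (Fkbp4). Mccc1 encodes a subunit of an enzyme of leucine breakdown. It read 10.17, 10.26 and 10.15 in control adults, 9.31, 9.47 and 8.95 in transgenic adults and 9.30 to 9.38 in newborns. As with Ttll1, only its control adults stood apart. Its r was 0.98 with Ttll1, 0.97 with Tbc1d10c, 0.93 with Ano10 and 0.36 with Cenpf.

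Single genes had their own neighbours. Ttll1 was closest to Hdlbp (0.99), Mccc1 and Slc26a6 (0.98 each). Tbc1d10c was closest to Slc26a6, Ctf1 (0.99 each) and Hdlbp (0.98). Ano10 was closest to Mccc2, which encodes the partner subunit of Mccc1, to Ctf1 (0.99 each) and to Ldhb (0.98). Slc26a6, an anion exchanger gene, read 8.11, 8.50 and 7.98 in control adults and 6.77, 6.98 and 6.07 in transgenic adults, with newborns at 6.33 to 6.43. Ctf1, which encodes the cytokine cardiotrophin, read 7.34, 8.01 and 7.42 against 6.55, 6.28 and 6.16, with newborns at 5.99 to 6.28.

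Cenpf was closest to Aldh1l2, Mrpl3 (0.97 each) and Nckap5 (0.96). Aldh1l2, which encodes a mitochondrial folate enzyme, read 6.75, 7.11 and 7.25 in control adults, 4.71, 5.15 and 5.04 in transgenic adults and 7.32 to 7.70 in newborns. As for Cenpf, the transgenic adults were the low group and the newborns the highest. Mrpl3, a mitochondrial ribosomal protein gene, moved over a smaller range, with means of 10.28 ± 0.05 and 9.82 ± 0.17 (SD, n = 3 each) in control and transgenic adults. The r of these 3 genes with Ttll1 was 0.10 to 0.21.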

How the data were processed

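RNA was labelled and hybridised as biotinylated cRNA, per the labels' protocols. The authors deposited log2 values of 45101 probe sets on 11 arrays, whose medians are 5.12 to 5.18. The submitters' processing notes name RMA, affy and limma, without versions or roles. RMA includes quantile normalisation, so a shift of most transcripts would not show. Of the probe sets 34958 had 1 gene symbol in the platform annotation, 932 several and 9211 none listed, which left 18194 genes. With limma 3.58.1 (R 4.3.3), 1 mean per group was fitted over all arrays (7 residual degrees of freedom), 2-sided, with Benjamini-Hochberg adjustment over all genes and calls at an adjusted p under 0.05. All adjusted p-values are limma's. The adult arrays alone had a median residual SD of 0.21 against 0.18 over all arrays, so adult tests are liberal. Array number limits the precision. P-values set a group difference against the spread between arrays of the same group, which the main fit pools over all 11 arrays. The script was tested on simulated data. The 4 genes, 9 pathway lists and 9 marker lists were chosen with earlier results of these data known. Genes named are the 4, Hmgn5, preselected relatives and partners, up to 3 per pathway list by adult p, and those ranked highest or lowest by correlation; Mme, Rpl3l and Kcnj3 are neighbours in rank. Of 166 listed pathway genes 154 were analysed. Alternatives were the replicate block, filters, probe set means, variance settings, normalisations, batch, atrial covariate, compared groups only and leaving out each array.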

Additional observations from a re-analysis of the deposited data

How the results depend on the processing

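On their primary probe sets the 4 adult differences moved by less than 1 SD in all settings. With 3 arrays a group, leaving out 1 array cannot move a difference that far. The replicate block, low-value filter, intensity trend, 18S batch factor and fit of only the compared groups left the 4 values unchanged. The limit of 1 SD is therefore no check of these differences. Leaving out one array gave -2.74 to -2.26 for Cenpf, -3.09 to -2.54 for Ttll1, -3.17 to -2.52 for Ano10 and -2.79 to -2.35 for Tbc1d10c. The mean of all probe sets gave -1.0 for Cenpf and -1.19 for Ttll1. The other single probe sets gave -0.48 and 0.00 for Cenpf, and -0.73 and -0.04 for Ttll1. The newborn difference of Cenpf ranged from -0.23 to 0.13 with one array left out, and that of Ano10 was 0.10 with the replicate block. The count of pathway genes called in adults was 6, against 10 with the replicate block, 17 with array weights, 20 with the 18S batch factor, 19 with that batch left out, 1 with the atrial covariate, 2 with only the compared groups, and 5 to 30 leaving out one array. Between ages it was 0, against 1 with the replicate block, the low-value filter or the intensity trend, 10 with array weights, 3 with the 18S batch factor, 7 without that batch, and 0 to 7 leaving out one array; the fit of only the compared groups gives it no value. All genes called in adults were 1290, against 2625 and 2183 with the 18S batch as a factor and left out, 238 with the atrial covariate, 373 with only the compared groups, and 746 (without control adult replicate 2) to 2267 (without transgenic adult replicate 3) leaving out one array. With the replicate block all genes called in adults were 1466, and with array weights 1834. Calls over all genes between ages were not counted under the alternatives. The causes were not tested. Of 900 values of 41 tested genes 835 kept their side of the threshold, 15 lost a call, 50 gained one and 0 turned a call around. Same-numbered arrays deviated from their group means with correlations of 0.31, -0.06 and 0.45 in adults and 0.18 and -0.15 in newborns, and 4 of 6 adult arrays correlated best with their own number, so the numbers were not taken as pairing the samples. Quantile-normalised values, 2 to 3 arrays a group and low signal of some probe sets limit what can be seen.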

Other observations

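Some genes ran opposite to Ttll1, Ano10 and Tbc1d10c over the 11 arrays, and much less so to Cenpf. The lowest mean Pearson r with all 4 was -0.82 for Uchl1, which encodes a ubiquitin hydrolase, and -0.81 for the reductase gene Cyb5r3. It was -0.80 each for Mfge8, which encodes a secreted adhesion protein, and for the natriuretic peptide gene Nppa. Uchl1 read 9.06, 8.59 and 9.57 in transgenic adults, 5.30, 5.36 and 5.60 in control adults and 7.93 to 8.39 in newborns. Cyb5r3 read 10.38, 10.38 and 10.45 in transgenic adults, 9.18, 9.04 and 9.10 in control adults and 10.11 to 10.27 in newborns. For Uchl1 and Cyb5r3 the control adults were the low group, and the transgenic adults lay above the newborns. The r of Uchl1 was -0.95 with Ttll1, -0.90 with Ano10, -0.94 with Tbc1d10c and -0.47 with Cenpf. With Cenpf, Cyb5r3 had r of -0.39, Mfge8 of -0.33 and Nppa of -0.37. These values are descriptions, as the arrays share groups.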
